A study of Mus musculus with 8 samples.

Results

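Tac1 encodes preprotachykinin A, the precursor from which endopeptidases cut the neuropeptides substance P and neurokinin A. It was chosen by its values in these libraries. The rule was the largest rise in β-cells with cytokines over β-cells with cytokines and the nitric oxide synthase inhibitor NG-monomethyl-L-arginine (NMMA). In the fit given below, Tac1 was at rank 2 of 12771 genes by that difference, after Mmp12. It is 1 of 30406 genes listed for both replicates. Because β-cells with and without NMMA chose the gene, their Tac1 levels are given as a description with no test. Tests are given for cells or libraries that the choice did not use. The other cell types tested with cytokines share their libraries with the β-cells that chose the gene. Values are counts of unique molecular identifiers (UMIs), where each UMI stands for 1 captured RNA molecule, and CPM values are Tac1 UMIs per 1000000 UMIs of the same cells.

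Tachykinins are small peptides that neurons and some endocrine cells store in granules and release on stimulation. Substance P acts mainly through the receptor encoded by Tacr1 and neurokinin A mainly through that encoded by Tacr2, both coupled to G proteins. Substance P is best known from sensory nerves, where it takes part in pain signalling and in swelling of inflamed tissue, and from enterochromaffin cells and neurons of the gut. In the pancreas, tachykinin-containing nerve fibres reach the islets, whose β-cells secrete insulin, α-cells glucagon and δ-cells somatostatin. Interleukin-1β and interferon-γ induce Nos2, the inducible nitric oxide synthase, in β-cells.

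Islets of male C57BL/6 mice 12 to 16 weeks old were pooled from 10 mice for each replicate, and the single cells were captured in droplets. The untreated islets received neither cytokines nor inhibitor. The cytokine islets received 10 U/mL interleukin-1β together with interferon-γ for 18 h, a further group received the same cytokines with 2 mM NMMA, and the last group received NMMA alone. Each of the 4 conditions has 2 libraries, 1 from each pool, and all groups share the same wild-type background. The spread between libraries is that between 2 pools of mice together with any difference in handling or processing of the 2 replicates. Their gene lists differ, with 31053 genes in replicate 1 and 32285 in replicate 2. The libraries hold whole islets that were cultured outside the animal and then dispersed, so every cell type of the islet is measured side by side.

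Tac1 (ENSMUSG00000061762.12) is a protein-coding gene on chromosome 6, plus strand, from 7554879 to 7565834 in GRCm38, with 5 annotated transcripts in GENCODE M21 and no gene that overlaps it. The nearest annotated neighbours are the processed pseudogenes Gm44048, which ends 13565 bases before it, and Gm8676, which starts 78072 bases after it. The sequence shown is the part of the RefSeq promoter window of Tac1 that lies before the annotated start, chr6:7554811-7554878 on the plus strand of GRCm38.p6, 68 bases. The capitals mark the letters TGCGTCA, which resemble the binding element of the cAMP-responsive factor CREB.
Tac1: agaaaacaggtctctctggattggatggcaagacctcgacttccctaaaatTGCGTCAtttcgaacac
Over the whole 300-base window, searched on both strands, TGCGTCA matched once, 199 bases before the RefSeq start, and 2.12% of 32851 promoters of that length hold it. The E-box letters CACGTG matched once, 61 bases before that start, and 7.15% of promoters hold them. The cAMP response element TGACGTCA (1.79% of promoters), the AP-1 letters TGANTCA (7.81%), the interferon-γ activated site TTCNNNGAA (8.30%) and the NF-κB motif (5.56%) were not found in this window.

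The deposited matrices hold 17426 barcodes with 26549922 to 50731370 UMIs per library, and 10876 barcodes (62.4%) passed the limits on genes and mitochondrial UMIs. No pair of libraries shared more than 2 barcodes. The kept cells gave 6330 β-cells, 605 α-cells and 238 δ-cells, with a median of 24309, 15826 and 13871.5 UMIs per cell. In β-cells the 12 β-cell markers, insulin included, summed to 431131 CPM and the 8 α-cell markers to 907 CPM. In α-cells the 8 α-cell markers summed to 154210 CPM and the 12 β-cell markers to 29484 CPM. In δ-cells the 5 δ-cell markers summed to 60162 CPM, below the 68393 CPM of the pancreatic polypeptide and peptide YY genes. Tac1 was found with 1217 UMIs in all barcodes, and 796 of these were in 110 kept cells.

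In β-cells Tac1 was almost absent without cytokines and appeared in a small number of cells with cytokines. The untreated libraries held 1 Tac1 UMI in 1660 β-cells of replicate 1 and 1 UMI in 604 β-cells of replicate 2. The cytokine libraries held 177 UMIs in 16 of 1133 β-cells in replicate 1 and 297 UMIs in 14 of 571 β-cells in replicate 2. With cytokines and NMMA, 4 UMIs were in 2 of 644 β-cells in replicate 1 and 6 UMIs were in 4 of 441 β-cells in replicate 2. The NMMA libraries held 0 UMIs in 666 β-cells and 1 UMI in 611 β-cells. Both cytokine libraries stood above all 6 other libraries, and both libraries with cytokines and NMMA stood above the 4 libraries without cytokines.

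**Figure D1:**
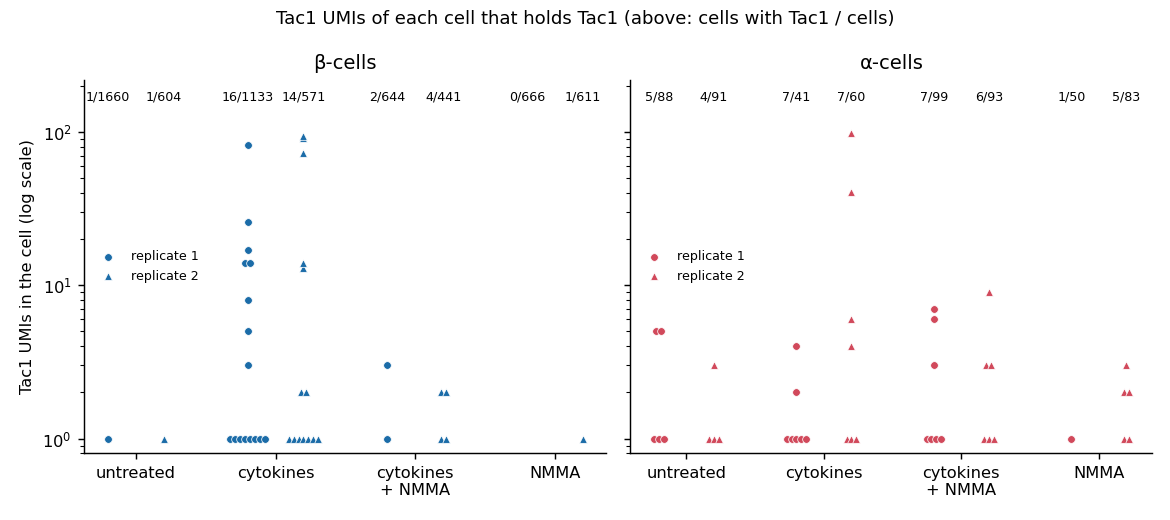
Each point is a cell that holds Tac1, with its Tac1 UMIs on a log axis, for β-cells (left) and α-cells (right) by condition; circles are replicate 1, triangles replicate 2, and the numbers above give cells with Tac1 over all cells of the class. Cells with 13 or more UMIs in β-cells are found in both cytokine libraries, and the highest β-cell with cytokines and NMMA holds 3.

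On the CPM scale, β-cells stood at 0.0284 and 0.0644 CPM in the untreated libraries and at 6.06 and 17.9 CPM in the cytokine libraries. With cytokines and NMMA they stood at 0.218 and 0.521 CPM, and with NMMA alone at 0 and 0.0683 CPM. The cytokine level over the condition was 262 times the untreated level (95% counting interval 72.3 to 2173) and 30.9 times the level with cytokines and NMMA (16.7 to 64.9). Such intervals cover counting error only, and since UMIs of 1 cell are not independent they are too narrow.

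In the fit of β-cell sums by edgeR, Tac1 stood 8.22 (SE 0.86) higher on the log2 scale with cytokines than untreated, 5.30 (SE 0.69) higher with cytokines than with cytokines and NMMA, and 2.92 (SE 1.29) higher with cytokines and NMMA than untreated. Within replicates the log2 ratio of cytokines over untreated was 7.73 in replicate 1 and 8.12 in replicate 2, and that of cytokines over cytokines and NMMA was 4.79 and 5.11. All these contrasts belong to the choice of the gene or share its libraries, so no p is given. In that fit 23.8% of 12771 genes were called higher and 22.4% lower with cytokines than untreated, 9.0% higher and 10.4% lower with cytokines than with cytokines and NMMA, and 12.9% higher and 9.74% lower with cytokines and NMMA than untreated. Scaled by total UMIs, the calls became 1971 higher and 3950 lower in place of 3035 and 2861 with cytokines, and 401 and 2362 in place of 1150 and 1328 against cytokines and NMMA. Under that scaling the median of all genes moved to -0.22 in both contrasts, and Tac1 stood at 8.01 and 5.09.

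NMMA against untreated is a comparison that the choice did not use. Tac1 did not pass in it (adjusted p = 0.998, edgeR's quasi-likelihood test with Benjamini-Hochberg adjustment), and 0% of genes were called in this contrast. With 1 UMI in 1277 β-cells against 2 UMIs in 2264, both conditions lie at or under 3 counts, so no fold is given and a difference was not detectable at this depth.

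The share of β-cells that held Tac1 differed less between conditions than the UMIs did. The share was 0.0883% untreated (2 of 2264 cells), 1.76% with cytokines (30 of 1704, exact 95% interval 1.19 to 2.50%), 0.553% with cytokines and NMMA (6 of 1085, 0.203 to 1.20%) and 0.0783% with NMMA (1 of 1277). The cytokine share was 19.9 times the untreated share (5.06 to 172) and 3.18 times that with cytokines and NMMA (1.30 to 9.36). With each cell thinned to 10500 UMIs, which left out 187, 129, 111 and 88 shallower cells of the 4 conditions, the shares were 0.0481%, 1.21%, 0.308% and 0.0841% in the same order. The thinned cytokine share was 1.09% in replicate 1 and 1.48% in replicate 2, and in the libraries with cytokines and NMMA it was 0% (of 621 cells, which allows up to 0.483%) and 0.850%.

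Free RNA in droplets can place a UMI in a cell that does not express the gene. In macrophages, endothelial cells and mesenchymal cells, taken here as types that lack Tac1, 1 of 826 cells held it (0.121%), at a median of 10370.5 UMIs per cell. The count in these cells was 0 of 273 untreated, which allows a share of up to 1.10%, and 0 of 251 with NMMA, which allows up to 1.20%. With cytokines it was 0 of 145, which allows up to 2.07%, and with cytokines and NMMA it was 1 of 157 (0.637%). Each of these limits is above the β-cell share of the same condition, and the share with cytokines and NMMA rests on 1 cell. At this number of cells a difference in share between β-cells and these types was thus not detectable. The UMIs per cell are a separate measure: that 1 cell held 1 Tac1 UMI, and 12 β-cells with cytokines held 5 or more. The part of free RNA in the β-cell values was not tested.

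The cytokine signal lay in few β-cells. Of the 30 β-cells with Tac1 under cytokines, 15 held 1 UMI and 12 held 5 or more, and the latter carried 95.4% of the UMIs. In replicate 1 the highest cells held 82, 26, 17, 14, 14, 8, 5 and 3 UMIs, and the others 1 each. In replicate 2 they held 94, 92, 73, 14, 13, 2 and 2 UMIs, and the others 1 each. The 5 highest cells over both libraries held 367 UMIs, 77.4% of the total, and no β-cell in the other 3 conditions held more than 3. The cell with 3, in replicate 1 with cytokines and NMMA, held 36 insulin UMIs and was thus poor in insulin for its class.

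Few genes with as many UMIs were held by so few cells. In cytokine-treated β-cells, 1298 other genes had a sum of UMIs close to that of Tac1 (380 to 592 against 474), and they were found in a median of 386.5 cells (range 18 to 498) against 30 for Tac1. Only 1 of them, Saa1, an acute-phase protein, was found in fewer cells (18). Tac1 averaged 15.8 UMIs per cell that held it, rank 158 among 9925 genes with at least 100 UMIs, for which the median was 1.38. The sums of these cells are the only bulk measure here, and in a sum fewer cells and less RNA per cell cannot be told apart; by cell, 12 of 1704 β-cells carried 95.4% of the UMIs.

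**Figure D2:**
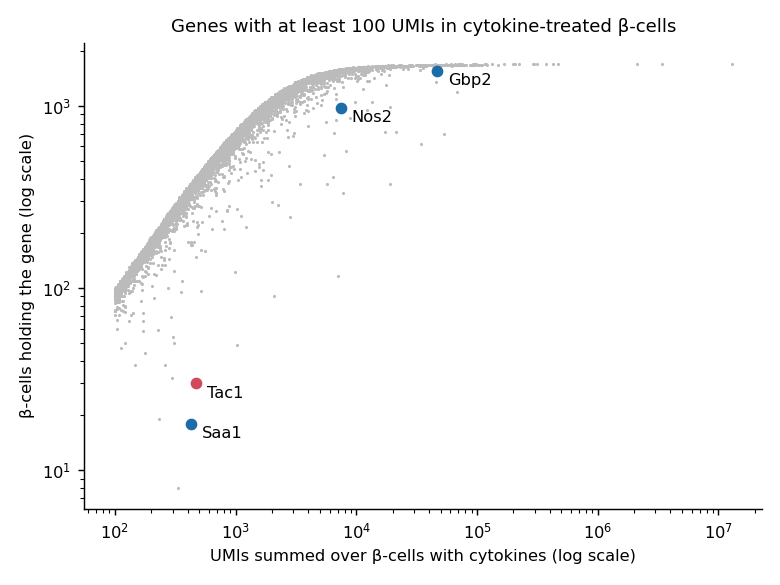
Each point is a gene with at least 100 UMIs in β-cells of both cytokine libraries, with its summed UMIs (x, log axis) against the number of β-cells that hold it (y, log axis). Tac1 (474 UMIs in 30 cells) and Saa1 lie well below the main band of genes, while Nos2 and Gbp2 lie close to it.

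The 12 β-cells with at least 5 Tac1 UMIs were led by insulin, 7 in replicate 1 and 5 in replicate 2. They held 149654 to 520232 CPM of Ins1 and Ins2 in replicate 1 and 273347 to 509331 CPM in replicate 2, against medians of 327371 and 347833 CPM in β-cells without Tac1. None of the 12 was scored as a doublet. In replicate 2 the cell with 14 Tac1 UMIs also held 3580 Gcg UMIs, and the cell with 13 held 1637 Gcg, 126 Sst and 385 Ppy UMIs. In replicate 1, 5 of 7 had more UMIs than the median β-cell without Tac1, and all 7 had a lower mitochondrial share (1.98 to 3.20% against a median of 3.64%). In replicate 2, all 5 had more UMIs (38732 to 65963 against a median of 27240) and 2 of 5 had a higher mitochondrial share.

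These cells carried the cytokine response to unequal degrees. Gbp2, an interferon-induced GTPase, was detected in all 12. Nos2 was at 0 in 3 of 7 Tac1-rich cells of replicate 1 and in 1 of 5 of replicate 2, and in 40.4% and 47.8% of the cells without Tac1. The highest cell of replicate 1, with 82 Tac1 UMIs, and the highest of replicate 2, with 94, each held 0 Nos2 UMIs. Ddit3, a transcription factor of the stress response, was above the median of cells without Tac1 in 4 of 7 and 3 of 5. The neuropeptide gene Npy was at 0 in all 12, and Vip was at 0 in 7 of 7 and 4 of 5. In the cells without Tac1, Npy was at 0 in 99.6% and 98.7% and Vip in 100% and 99.8%.

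Some Tac1 of replicate 2 was in β-cells that also held a second islet hormone, meaning at least 1% of their UMIs from Gcg, Sst or Ppy. These were 57 of 571 β-cells of the replicate 2 cytokine library, and 4 of them held 30 Tac1 UMIs. The other 10 cells with Tac1 in that library held 267 UMIs. In replicate 1, none of the 13 such cells held Tac1. With cytokines and NMMA in replicate 2, 4 of the 6 Tac1 UMIs were in 2 such cells. Without cells of this kind the log2 difference of cytokines over cytokines and NMMA was 6.04 (SE 0.71), an alternative chosen after seeing the data. Whether any of these barcodes held more than 1 cell was not tested.

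The order of genes by log2 difference between cytokines and cytokines with NMMA in β-cells placed Tac1 at rank 2 of 12771. Rank 1 was Mmp12, a macrophage elastase, at 6.36 (SE 2.67), with 22 and 1 UMIs in the cytokine libraries, 0 and 0 with cytokines and NMMA and 21 and 1 with NMMA alone. Rank 3 was Gm16170 at 4.41 (SE 0.64), with 99 and 70 UMIs under cytokines and 4 and 2 with cytokines and NMMA. Ranks 4 to 6 were Chp2 (4.33), Vstm2b (4.27) and Tspan18 (4.02), with 4 to 46 and 1 to 22 UMIs in the cytokine libraries. Tac1, with 177 and 297, had the most UMIs in the cytokine libraries among these 6 genes.

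α-cells held Tac1 without cytokines. The untreated libraries gave 13 UMIs in 5 of 88 α-cells (11.1 CPM) and 6 UMIs in 4 of 91 (3.67 CPM). The NMMA libraries gave 1 UMI in 1 of 50 α-cells (1.28 CPM) and 9 UMIs in 5 of 83 (7.01 CPM). All 4 libraries were above the β-cells of the same library, and the highest of these α-cells held 5 UMIs. Over the 4 libraries without cytokines, 15 of 312 α-cells (4.81%, exact 95% interval 2.72 to 7.81%) and 3 of 3541 β-cells (0.0847%) held Tac1, and its CPM was 169 times that of β-cells (52.3 to 866).

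In a fit with library as a block, the log2 difference between α- and β-cells without cytokines was 6.50 (SE 0.78), and 48.9% of genes were called in that contrast. Tac1 was variable but was left out of the genes used to cluster the cells, and this difference is given as a description with no test. Barcodes were also grouped by leading hormone alone, with at least 200 genes, 1000 UMIs and 5% of UMIs from that hormone. The kept untreated barcodes then held 20 UMIs in 10 of 203 glucagon-led barcodes and 8 in 8 of 2536 insulin-led barcodes. The kept NMMA barcodes held 10 UMIs in 5 of 159 glucagon-led and 9 in 5 of 1478 insulin-led barcodes.

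Outside the β-cell clusters, 260 kept cells lay in 4 subclusters in which insulin led 82.1 to 96.1% of the cells, and 259 of them came from the libraries without cytokines. They held 6 Tac1 UMIs in 6 of 129 untreated cells and 6 in 3 of 130 NMMA cells, more per cell than the β-cells of those libraries. The remaining cell, from the replicate 1 cytokine library, held 8 Tac1 UMIs. Of the 6 untreated cells, 1 was led by glucagon, with 6038 Gcg and 208 insulin UMIs. With insulin-led barcodes in place of the β-cell clusters, the untreated level was 0.147 CPM and the cytokine level 10.6 CPM. The log2 difference of cytokines over untreated was then 6.48 (SE 1.21), and that of cytokines over cytokines and NMMA was 5.68 (SE 1.20).

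With cytokines the α-cells of replicate 2 held most of the α-cell Tac1. The cytokine libraries gave 11 UMIs in 7 of 41 α-cells (15.8 CPM) and 153 UMIs in 7 of 60 (123 CPM). With cytokines and NMMA, 20 UMIs were in 7 of 99 α-cells (11.9 CPM) and 18 were in 6 of 93 (9.05 CPM). Both cytokine libraries stood above the other 6, but 2 α-cells of replicate 2, with 99 and 41 UMIs, carried most of the difference.

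The α-cells of the conditions lay in different subclusters. Untreated and NMMA α-cells were nearly all in 3 subclusters in which Gcg led 88.1 to 96.1% of the cells. With cytokines, all 41 α-cells of replicate 1 and 44 of replicate 2 were in a subcluster marked by Gadd45b and Ccl5 (76.8% led by Gcg), and 14 of replicate 2 were in one marked by Cxcl1 and Fgb (57.9% led by Gcg). The latter held 123 Tac1 UMIs over all conditions, and the cell with 99 UMIs was in it. Of the 14 cytokine-treated α-cells with Tac1, 3 were led by insulin, with 13782, 11004 and 4772 insulin UMIs and 6, 1 and 1 Tac1 UMIs, and the last of these was scored as a doublet. The part of these differences in the α-cell values was not tested.

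Tac1 did not pass the test in α-cells with cytokines over untreated (log2 3.85, SE 1.09, adjusted p = 0.0738 by edgeR's quasi-likelihood test with Benjamini-Hochberg adjustment), where 22.4% of genes were called. It also did not pass with cytokines over cytokines and NMMA (log2 3.15, SE 0.98, adjusted p = 0.142 by the same test), where 9.68% were called. Without the cytokine library of replicate 2 the log2 differences were 1.75 and 1.06. Without the cytokine library of replicate 1 they passed, at 4.52 (adjusted p = 5.71e-06, edgeR) and 3.80 (adjusted p = 0.000224, edgeR), with 1 cytokine library assumed to vary like the other groups.

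The share of α-cells with Tac1 was 5.03% untreated (9 of 179), 13.9% with cytokines (14 of 101, exact 95% interval 7.79 to 22.2%), 6.77% with cytokines and NMMA (13 of 192, 3.65 to 11.3%) and 4.51% with NMMA (6 of 133). Thinned to 9500 UMIs per cell, the shares were 3.97%, 9.52%, 5.0% and 3.39%, and their intervals overlapped. With cytokines, α-cells stood at 84.6 CPM and β-cells at 10.4 CPM.

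**Figure D3:**
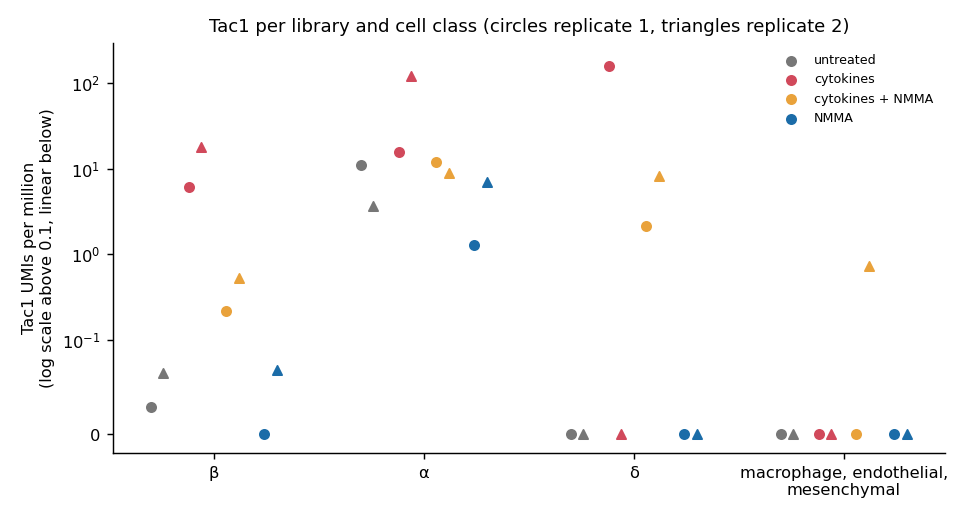
Tac1 in CPM (y, log scale above 0.1 and linear below) for each library in β-, α- and δ-cells and in macrophages, endothelial and mesenchymal cells together; colours are conditions, circles replicate 1 and triangles replicate 2. The β-cell points span from 0 to 17.9 CPM by condition, while α-cells stand above 1 CPM in all 8 libraries.

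δ-cells were few in the cytokine libraries, with 9 cells in each, and their contrasts could not be fitted. Replicate 1 held 20 Tac1 UMIs under cytokines, all in 1 cell with 668 Sst UMIs, and replicate 2 held 0. With cytokines and NMMA, 2 UMIs were in 1 of 61 δ-cells and 6 UMIs were in 2 of 37. The first of these cells was led by glucagon (2302 Gcg and 217 Sst UMIs) and the cell with 1 UMI by insulin (2682 insulin and 368 Sst UMIs). The cell with 5 UMIs, the only one led by somatostatin, also held 49 Npy and 79 Vip UMIs. No δ-cell of the libraries without cytokines held Tac1, in 83 untreated cells (which allows a share of up to 3.61%) and 39 NMMA cells (up to 7.69%).

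The 111 cells of a subcluster in which Ppy, the pancreatic polypeptide gene, led 55.9% of the cells held no Tac1. Kept barcodes led by Ppy that lay in the α-cell subclusters did, with 1 UMI in 1 untreated barcode, 4 in 2 with cytokines and NMMA, and 3 in 2 with NMMA. A group of 180 cells, from 2 subclusters in which no hormone led most cells, held 24 UMIs in 9 cells. The first, 102 cells marked by Vip, Npy, Sncg and Stmn2, held 20 UMIs in 6 cells. The second, 78 cells marked by Hspa1a and Hspa1b, held 4 UMIs in 3 cells. Some cells of the first carried the neuropeptide genes Vip and Npy, among them an NMMA cell with 8 Tac1 UMIs. That cell held 26 Vip, 10 Npy, 31 insulin and 1 Gcg UMIs, and the type of such cells was not named. Of the other cells, 1 of 282 endothelial cells, 2 of 57 acinar cells and 3 of 2191 unnamed low-count cells held Tac1, and none of 324 macrophages, 220 mesenchymal cells, 39 ductal cells and 39 lymphocytes did.

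Taking α-cells, δ-cells and the Ppy subcluster as 1 group gave enough cells in every library. The untreated libraries stood at 5.25 and 3.10 CPM and the cytokine libraries at 37.3 and 108 CPM. The libraries with cytokines and NMMA stood at 8.42 and 8.75 CPM, and those with NMMA at 0.678 and 6.38 CPM. Both cytokine libraries were above the other 6. The make-up of the group moved with treatment, from 179 α-cells, 83 δ-cells and 70 cells of the Ppy subcluster untreated to 101, 18 and 5 with cytokines. Neither δ-cells nor the Ppy subcluster held Tac1 without cytokines, and the part of the make-up in the differences was not tested.

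Tac1 rose with cytokines over untreated in these cells (log2 4.40, SE 0.66, adjusted p = 0.00411 by edgeR's quasi-likelihood test with Benjamini-Hochberg adjustment), among 18.5% of genes called. It was also higher with cytokines than with cytokines and NMMA (log2 3.39, SE 0.59, adjusted p = 0.0217 by the same test), among 5.38% called. These cells share libraries, and so free RNA, with the β-cells that chose Tac1. NMMA against untreated did not pass (log2 -0.29, SE 0.97, adjusted p = 1 by the same test), with 0% of genes called.

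The difference from cytokines with NMMA in this group rested on few libraries and cells. It no longer passed without the highest cell of each library (log2 2.82, adjusted p = 0.0634, edgeR), without the cytokine library of replicate 2 (2.45, adjusted p = 0.0532, edgeR) or without either library with cytokines and NMMA (3.29 and 3.47, adjusted p = 0.185 and 0.157, edgeR). By leading hormone in place of clusters, the kept barcodes gave log2 2.68 (adjusted p = 0.178, edgeR), and cytokines over untreated gave 4.27 (adjusted p = 0.0537, edgeR).

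Many Tac1 UMIs were in barcodes outside the limits. The limits remove barcodes with over 5500 (replicate 1) or 6500 (replicate 2) genes or over 10% mitochondrial UMIs, and 421 of the 1217 Tac1 UMIs were in the 6550 removed barcodes. In the library with cytokines and NMMA of replicate 2, 226 UMIs were removed and 31 kept, and in that of replicate 1, 42 were removed and 27 kept. In the cytokine libraries, 10 UMIs were removed and 217 kept in replicate 1, and 103 were removed and 455 kept in replicate 2. The libraries with cytokines and NMMA thus lost more Tac1 than they kept, in both replicates.

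Most of this removed Tac1 was not in insulin-led barcodes. With cytokines and NMMA, the removed insulin-led barcodes held 27 UMIs in 10 of 654, with at most 7 in a barcode. The removed glucagon-led barcodes held 130 UMIs in 7 of 57, and the removed Ppy-led barcodes held 96 in 2 of 12, of which 93 were in 1 barcode with 16912 Ppy UMIs and 72791 UMIs in all.

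**Figure D4:**
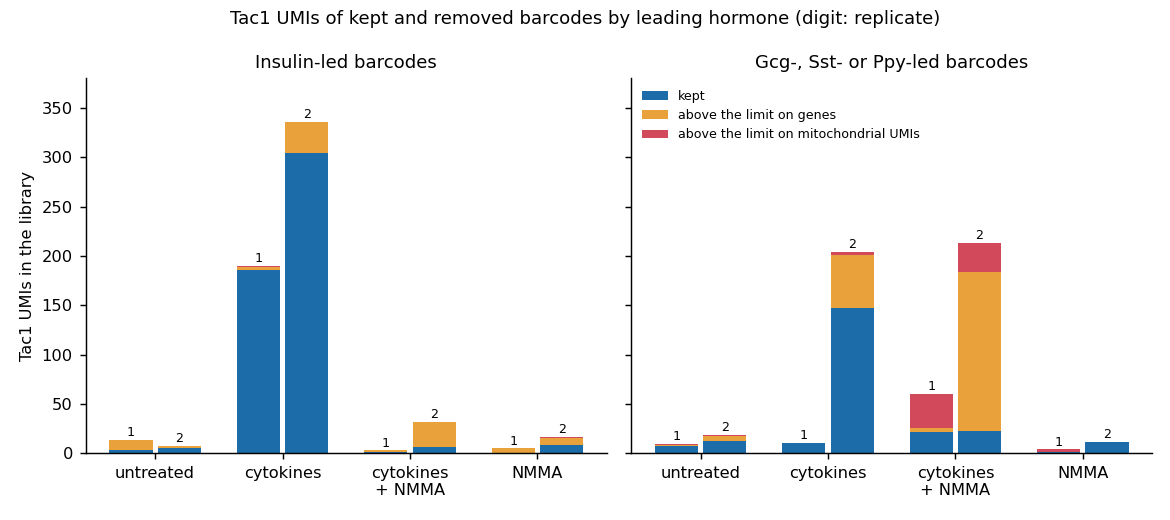
Tac1 UMIs per library (bars, with the replicate number above) in insulin-led barcodes (left) and in barcodes led by Gcg, Sst or Ppy (right), stacked as kept, removed for genes above the limit and removed for mitochondrial UMIs above the limit. In the insulin-led barcodes the cytokine libraries stand highest with or without removed barcodes; in the others the replicate 2 library with cytokines and NMMA is as high as its cytokine library once removed barcodes are counted.

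Kept and removed barcodes were then grouped together by leading hormone, with at least 200 genes, 1000 UMIs and 5% of UMIs from that hormone. Insulin-led Tac1 stood 5.15 (SE 1.24) higher with cytokines than untreated and 3.93 (SE 1.16) higher than with cytokines and NMMA on the log2 scale. In glucagon-, somatostatin- and Ppy-led barcodes together the difference from cytokines and NMMA was 0.85 (SE 1.10, adjusted p = 0.710 by edgeR's quasi-likelihood test with Benjamini-Hochberg adjustment), and that from untreated was 4.39 (SE 1.40, adjusted p = 0.108 by the same test). This grouping was chosen after seeing the data.

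β-cells that held Tac1 under cytokines were set against β-cells of the same library that did not. After thinning to 10500 UMIs, the sides held 12 and 1090 cells in replicate 1 and 7 and 466 cells in replicate 2, with Tac1 itself left out. Of 8995 genes, 6 were higher (0.0667%) and 0 lower (0%) by edgeR's quasi-likelihood test on the 4 sums, with 273 genes at an unadjusted p below 0.05. DESeq2 called 1 gene, and with at least 2 Tac1 UMIs against none edgeR called 0. In simulated data of this size few changed genes were recovered and false calls outnumbered true ones, so the 6 calls may be false.

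The 6 genes were Isg15 and Ifit3, both interferon-stimulated, Rbp4, the retinol carrier that also marks δ-cells, Gpx3, a secreted glutathione peroxidase, and the acute-phase genes Fgb and Saa1. Isg15 was higher by 1.73 (SE 0.35) and Ifit3 by 1.68 (SE 0.38) on the log2 scale. Rbp4 was higher by 2.29 (SE 0.36) and Gpx3 by 2.43 (SE 0.54). Fgb (2.92, SE 0.45) and Saa1 (4.46, SE 0.88) went in opposite directions in the 2 libraries.

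For 4 of the 6 genes most UMIs on the Tac1 side came from 1 cell. Of the Isg15 UMIs in cells with Tac1, 29 of 31 in replicate 1 and 7 of 11 in replicate 2 were in 1 cell each. For Ifit3 it was 25 of 30 in replicate 1, for Fgb 24 of 30 in replicate 1 and for Saa1 29 of 29 in replicate 2. Isg15 was found in 3 of 12 and 2 of 7 cells with Tac1, and in 28.0% and 21.2% of cells without. In replicate 2 the highest cell held 18 of 41 Rbp4 UMIs and 8 of 19 Gpx3 UMIs.

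None of 12 cytokine-response genes, 12 stress-response genes or 13 β-cell identity genes was called in either direction. Nos2 differed by -0.71 (SE 0.38) and Gbp2 by -0.32 (SE 0.21) on the log2 scale, Ddit3 by 0.07 (SE 0.23), and Ins2 by -0.16 (SE 0.15). All 13 β-cell identity genes had a log2 difference below 0, with Pdx1 at -2.10 (SE 1.39) and Mafa at -1.52 (SE 0.81), and their median was -0.83 against -0.24 over all genes. None of 8 processing genes, 16 other peptide genes and 8 cAMP-response genes was called either. With 12 and 7 cells on the Tac1 side, a p that missed the threshold does not show that the sides were alike. Without cytokines at most 1 cell per library held Tac1 after thinning, and the split could not be fitted.

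Over the 8 β-cell sums, the genes whose log2 CPM was most like that of Tac1 by Pearson's r were the ribosomal protein genes Rps15a (0.994) and Rps14 (0.990), the adhesion gene Cdh1 (0.989), and Rpl26, Rps23, Ddx47, Pgam5, Rtf1, Pls3 and Prdm4, the last at 0.984. These points share their libraries and 2 of the 8 carry the highest values, so r is a description over 8 sums. The size of the changes differed: Rps15a ran from 9.65 to 10.7 on the log2 CPM scale and Tac1 from -4.32 to 4.33. In the untreated and NMMA libraries β-cells held 0 or 1 Tac1 UMI. Their Tac1 values thus rest largely on the prior count of 1 added before taking logs.

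The other tachykinin genes were close to absent from the kept cells. Tac2 and Tac4, which encode neurokinin B and hemokinin, had 1 UMI each, the substance P receptor gene Tacr1 had 1 and the neurokinin A receptor gene Tacr2 had 0. The neurokinin B receptor gene Tacr3 had 68 UMIs, 56 of them in 46 β-cells. Tacr3 was found in 0.707% of untreated β-cells, 0.704% of those with cytokines, 0.461% where NMMA was added to cytokines and 1.02% in NMMA alone, and it was not called in either contrast.

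Genes for making a peptide from its precursor were widely detected in β-cells. Pcsk2, a prohormone convertase, was found in 99.3% of β-cells, the carboxypeptidase gene Cpe in 99.2%, the amidating enzyme gene Pam in 93.0% and Pcsk1, the other main convertase, in 82.4%. Qpct, whose enzyme closes N-terminal glutamine, was found in 6.98%. Among these 8 genes, where 23.8% of all genes were higher and 22.4% lower, 2 rose (Cpe at 0.67, SE 0.13, and Qpct at 0.86, SE 0.24) and Pcsk1 fell by 1.07 (SE 0.16) with cytokines over untreated. With cytokines over cytokines and NMMA, Pcsk1 fell by 1.10 (SE 0.16) and Furin, a convertase of the secretory pathway, by 0.65 (SE 0.16). In that contrast 9.0% of all genes were higher and 10.4% lower. The list medians were -0.06 and 0.11, against 0.00 and -0.01 over all genes tested.

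Of 6 peptide-degrading enzymes, 4 were tested. Dpp4 (fell by 1.52, SE 0.15) and Ece1 (fell by 0.63, SE 0.15) were lower with cytokines than untreated, where 22.4% of all genes were lower. None was called against cytokines and NMMA, where 9.0% of all genes were higher and 10.4% lower. Mme, which encodes neprilysin, the main protease of substance P, was found in 2 of 6330 β-cells. The list medians were -0.66 and -0.45, against 0.00 and -0.01 over all genes tested.

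Of 29 other islet and neuronal peptide genes, 20 were tested. With cytokines over untreated 3 rose and 2 fell, against 23.8% and 22.4% of all genes, among them Adm, which encodes adrenomedullin (4.16, SE 0.57), Gal, which encodes galanin (2.49, SE 0.53), and Ucn3, a peptide of mature β-cells (fell by 2.65, SE 0.18). With cytokines over cytokines and NMMA, Npy was higher by 2.19 (SE 0.50) and the granin gene Chgb fell by 0.84 (SE 0.15), where 9.0% and 10.4% of all genes were higher and lower. The list medians were 0.41 and 0.47.

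Of 12 tested genes that respond to cAMP and cell activity, 2 rose and 4 fell with cytokines over untreated, against 23.8% and 22.4% of all genes. Against cytokines and NMMA 6 fell and none was higher, where 9.0% and 10.4% of all genes were higher and lower. Fos, an AP-1 subunit, fell by 2.82 (SE 0.26) and 2.94 (SE 0.26) in these contrasts, and Egr1 by 3.0 (SE 0.34) and 2.10 (SE 0.33). Crem, a cAMP-response factor, rose by 0.55 (SE 0.12) over untreated and fell by 0.99 (SE 0.12) against cytokines and NMMA. The list medians were 0.12 and -0.91.

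The wider cytokine response was present in the same β-cell sums. Its gene lists were chosen with earlier results of these data known, and the study reports changes in several members in the same libraries. The counts of members called are thus a description. Over untreated, 23.8% of all genes were higher and 22.4% lower, and against cytokines and NMMA 9.0% were higher and 10.4% lower. All 12 cytokine-response genes rose over untreated, Nos2 by 12.79 (SE 0.39) and Gbp2 by 9.06 (SE 0.34) on the log2 scale, and against cytokines and NMMA 2 were higher and 4 lower, where Nos2 fell by 1.38 (SE 0.20). Of 12 stress-response genes, 9 rose over untreated and 4 were higher than with cytokines and NMMA, Ddit3 by 2.62 (SE 0.36) and 1.30 (SE 0.35). Of 13 β-cell identity genes, 12 fell and 7 were lower in the same contrasts, and the transcription factor gene Mafa fell by 3.74 (SE 0.21) and 1.16 (SE 0.19). Scaled by total UMIs, the calls against cytokines and NMMA became 0 higher and 5 lower of the cytokine-response genes, 2 and 1 of the stress-response genes, 0 and 7 of the cAMP-response genes, 0 and 3 of the processing genes and 0 and 2 of the degrading enzymes.

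With the replicate pool as a block, Tac1 stood at 7.95 (SE 0.37) over untreated and 5.17 (SE 0.30) over cytokines and NMMA in β-cells. The block raised the genes called against cytokines and NMMA to 2590 higher and 2604 lower, and the list members called from 27 to 45. The Tac1 calls in α-cells and in the 3 non-β endocrine classes together were on the same side of the threshold with the block.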

How the data were processed

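Single-cell RNA was measured in 8 libraries of dispersed mouse islets, 4 conditions with 2 replicates each, grouped by their titles. The authors processed the reads with Cell Ranger and deposited gene-by-barcode matrices of raw UMI counts. The headers of the matrices name versions 3.0.0 and 6.0.0, and the submitters' notes name the build mm10. The labels and the study's methods name different versions of the droplet kit. Tac1 and the gene lists were chosen with earlier results of these data known.

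Barcodes with 200 or more genes, at most 5500 (replicate 1) or 6500 (replicate 2) genes and at most 10% mitochondrial UMIs were kept, after the study's methods. Genes were joined by identifier. Scanpy 1.11.5 (2000 variable genes, 30 components, 20 neighbours, Leiden resolution 1) gave 24 clusters, named from marker lists, and mixed endocrine clusters were divided again at resolution 2. Doublets were scored (100 cells, 0.919%) and kept, and leaving them out was an alternative. UMIs were summed per library and class (at least 10 cells) and tested with edgeR 4.0.16 (quasi-likelihood, robust, TMM scaling, filterByExpr, all conditions in 1 fit) with Benjamini-Hochberg adjustment over all genes tested at 0.05. DESeq2 1.42.0 was an alternative. Standard errors are on the log2 scale, each taken as the log2 difference divided by the square root of the test's F statistic. For a gene with few UMIs they can be smaller than the counting error. Shares have exact Clopper-Pearson 95% intervals, and a count of 0 has a limit of 3 counts. For splits and shares at equal depth, cells were thinned to 10500 UMIs (β-cells), the largest multiple of 500 that 80% of the cells reach in every library. Python 3.11.15 and R 4.3.3 were used.

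Every gene of a fixed list was counted and at most a few per list named. From the split by Tac1 the called genes were named, and for likeness the 10 genes with the highest r. Of these, Fgb and Saa1 were named after their values were seen, since they differ in direction between libraries. Each replicate is 1 pool of islets divided over the conditions, and the deviations of same-numbered libraries from their group means correlated at 0.595 to 0.688 over 6 pairs of conditions (β-cell sums), so the replicate number pairs the libraries. Scripts were tested on simulated data: the contrasts recovered the changes put in, while at the size of the split few changed genes were recovered and false calls outnumbered true ones. Promoter letters are from RefSeq (GRCm38.p6), and gene positions from GENCODE M21.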

Additional observations from a re-analysis of the deposited data

Results flagged for a closer look

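In 3 libraries, barcodes outside the limits on genes and mitochondrial UMIs held more Tac1 than such barcodes of any untreated or NMMA library did. The removed barcodes of the replicate 1 library with cytokines and NMMA held 42 Tac1 UMIs, those of the replicate 2 cytokine library 103, and those of the replicate 2 library with cytokines and NMMA 226. The same class of barcode held 9 to 13 Tac1 UMIs in the 4 libraries without cytokines and 10 in the replicate 1 cytokine library. The highest removed barcodes of these libraries held 34, 40 and 93 Tac1 UMIs and were led by Gcg, Gcg and Ppy. The first lay above the mitochondrial limit and the others above the limit on genes. Why they lie outside the limits was not tested.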

How the results depend on the processing

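In β-cells, the log2 differences of Tac1 in the 3 contrasts with cytokines kept their sign under every setting run. Leaving out 1 library in turn gave 7.26 to 8.80 for cytokines over untreated, 4.34 to 5.92 over cytokines and NMMA, and 2.31 to 3.49 for cytokines and NMMA over untreated. For the last, the replicate block gave 2.77 and DESeq2 3.12. In the same order, settings chosen after seeing the data gave 5.15, 3.93 and 1.22 for kept and removed barcodes by leading hormone, and 6.48, 5.68 and 0.81 for kept barcodes by leading hormone. Without cells holding a second hormone the latter 2 contrasts gave 6.04 and 2.16. Without the highest cell of each library cytokines over cytokines and NMMA gave 5.63, and the untreated libraries held 0 UMIs, so no fold over them is given. NMMA against untreated in β-cells passed in no setting (adjusted p 0.973 to 1 by edgeR on leaving out a library), DESeq2 gave it no adjusted p, and at 1 and 2 UMIs its sign turned between settings and is not read.

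In the non-β endocrine cells, leaving out a library gave 3.47 to 4.91 over untreated and 2.45 to 3.89 over cytokines and NMMA (adjusted p 0.00791 to 0.185, edgeR). Kept and removed barcodes by leading hormone gave 4.39 and 0.85, kept barcodes by leading hormone 4.27 and 2.68, and the second contrast gave 2.82 without the highest cells, none passing. NMMA against untreated ran from -2.57 to 0.61 and turned positive without untreated replicate 1 (0.10) and without NMMA replicate 1 (0.61).

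In α-cells, cytokines over untreated ran from 1.75 to 4.73 without 1 library and passed with DESeq2 (3.65), without the highest cells (3.33) and for kept barcodes by leading hormone (3.98). Cytokines over cytokines and NMMA ran from 1.06 to 3.80 and passed without the highest cells (2.63). α- over β-cells without cytokines ran from 5.57 to 6.54, and could not be computed without replicate 2 of either condition or without the highest cells, where Tac1 fell under the filter on low counts. The contrasts in δ-cells and the split without cytokines could not be fitted.

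In the split by Tac1, the genes higher numbered 14 without thinning, 0 with at least 2 Tac1 UMIs, 19 with at least 5 and no thinning, and 1 with DESeq2. The genes lower numbered 6 without thinning, 2 scaled by total UMIs, 10 with at least 5, and 5 and 3 in other draws of the thinning. Of 9 edgeR settings, Isg15 was called in 8 and Ifit3 in 7. The NMMA share of β-cells with Tac1 was 0% at 5000 UMIs. The replicate block raised the list members called against cytokines and NMMA to 45, and the pairing changed no call of Tac1 in the contrasts given a test. In cells with few Tac1 UMIs the counts limit what could be detected. The causes were not tested.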
